A study of Mus musculus with 12 samples.

Results

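The TAM receptors Mertk, Axl and Tyro3, their ligands Gas6 and Pros1, the bridging protein Mfge8 and the integrin subunits Itgav, Itgb3 and Itgb5 were followed in mouse macrophages that had been given dead melanoma cells. These 9 genes were taken by symbol from the 55604 genes counted in each library, and all 9 were found and passed the filter on low counts. There were 3 groups of 4 RNA sequencing libraries, described per the labels. The first group held bone marrow-derived macrophages of strain C57BL/6 given STC1OE B16-F10 corpses, that is, corpses of a mouse melanoma line overexpressing STC1, a secreted glycoprotein. The second group was given control B16-F10 corpses, and the third received no corpses and is called macrophages alone. M-CSF (20 ng/ml) was given to the cells of every group during differentiation, which ended on day 7. Macrophages and corpses were combined at 1 to 5 and kept together for 20 h before loose corpses were removed by washing. The way the corpses were made, the construct, whether the overexpressing line is 1 clone, and the number of mice are not given in the sources used here. The series' design text calls the replicates independent experiments. Nothing says whether they came from separate animals, so p-values measure the spread between these libraries, which may be technical.

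Dying cells display the lipid phosphatidylserine on their surface, and macrophages recognise it through soluble proteins that act as bridges. Gas6 and Pros1 bind the lipid with a domain that is carboxylated with the help of vitamin K, and present it to the TAM receptor tyrosine kinases. Mfge8 binds the same lipid and is held by the integrins αvβ3 and αvβ5, which are formed by the product of Itgav with that of Itgb3 or Itgb5. Mertk is the TAM receptor best known for the uptake of dying cells by resting macrophages, and Axl is better known in macrophages exposed to inflammatory signals.

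Between 28488441 and 39981074 counts were assigned to genes in a library. Levels are in CPM, counts scaled to library size with TMM factors, and 0 counts in the shallowest library would allow up to 0.105 CPM, for counting error only. Reads that did not align made up 14.4% to 17.77% with STC1OE corpses, 10.81% to 11.54% with control corpses and 11.38% to 14.01% in macrophages alone. All 10 genes of the macrophage marker list were detected in every group, with summed levels of 14100 to 15240 CPM with STC1OE corpses, 14210 to 15860 CPM with control corpses and 16620 to 17520 CPM in macrophages alone. Stc1 itself had 17 counts in all with STC1OE corpses, 5 with control corpses and 5 where none were given, too few to check the labels firmly. Melanocyte transcripts moved with the groups. Of 13 tested melanocyte markers 10 were higher and 1 lower than in macrophages alone with either kind of corpse, and 1 was higher and 6 lower with STC1OE than with control corpses. At edgeR's adjusted p below 0.05, 21.4% of all 16406 genes tested were higher and 22.4% lower with STC1OE corpses than in macrophages alone. With control corpses these shares were 19.7% and 20.5%. Between the corpse groups 3.33% were higher and 2.12% lower with STC1OE corpses. Marker counts are to be read against these shares. The whole list of 17, of which Mitf was the most abundant, summed to 126 to 129.2 CPM with STC1OE corpses, 131.1 to 136.5 CPM with control corpses and 169.4 to 176.8 CPM in macrophages alone. Its 14 genes that were under 1 CPM without corpses summed to 9.27 to 10.96 CPM with STC1OE corpses, 14.2 to 18.7 CPM with control corpses and 2.35 to 2.97 CPM in macrophages alone. Gpr143 was at 0 with STC1OE corpses, and Tyr, Oca2 and Gpr143 were at 0 in macrophages alone. Other marker lists moved too. With either kind of corpse 7 of 10 macrophage markers were lower and 3 higher than in macrophages alone, 4 of 4 tested neutrophil markers were lower and 2 of 3 tested fibroblast markers were lower. Neutrophil markers summed to 84.56 to 91.13 CPM with STC1OE corpses, 91.73 to 96.81 CPM with control corpses and 177.2 to 185.6 CPM in macrophages alone, with Ly6g at 0 in every group. Most of this was Mmp8, at 83.8, 90.3 and 166.7 CPM on average in these groups. Fibroblast markers summed to 13.94 to 15.17 CPM, 12.47 to 16.95 CPM and 17.82 to 23.89 CPM in the same groups. The part of these markers in the results below was not tested. In such bulk RNA, fewer cells of a type and less RNA per cell cannot be told apart.

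Levels of different genes were compared as CPM per kb of exon. In macrophages alone Itgb5 (124.6 ± 6.53 CPM per kb, SD, n = 4), Gas6 (123.7 ± 4.54) and Mfge8 (107 ± 2.80) led, and each stood above at least 97.7% of 12194 protein-coding genes tested. The ranges of Itgb5 and Gas6 overlapped, and that of Mfge8 lay below both. Itgav followed at 39.7 ± 0.710 CPM per kb. Axl (22.9 ± 0.347) and Mertk (21.6 ± 0.825) were close, with ranges that overlapped, and Pros1 (9.71 ± 0.771) and Itgb3 (4.99 ± 0.194) were lower. Tyro3 was near the bottom at 0.0951 ± 0.0325 CPM per kb, above 3.4% of the same genes. With either kind of corpse the order was Mfge8, Gas6, Itgb5, Itgav, Mertk, Axl, Pros1, Itgb3 and Tyro3. With STC1OE corpses the ranges of Pros1 and Itgb3 in that order overlapped, and no other neighbours did. With control corpses none of the neighbours had overlapping ranges.

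**Figure D1:**
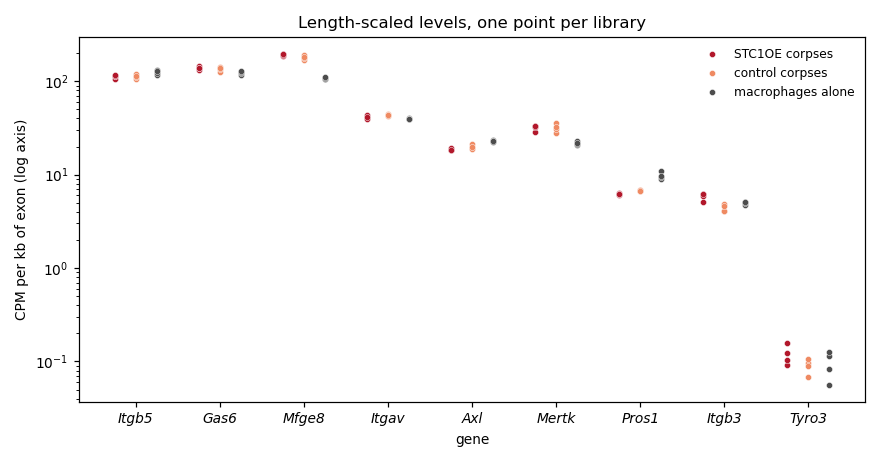
Length-scaled level of each gene (CPM per kb of exon, log axis), 1 point per library, coloured by group and ordered by the mean in macrophages alone. Mfge8, Gas6 and Itgb5 lie above 100 CPM per kb in every library, and Tyro3 lies below 0.2.

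Both corpse groups were first set against macrophages alone, which asks how these genes differed where corpses had been given. Uptake itself was not measured in these libraries. Mfge8 and Mertk were higher with corpses of either kind, while Pros1 and Axl were lower. Gas6 rose slightly and Itgb5 fell slightly, and Tyro3 did not pass the test. With STC1OE corpses 4 members rose and 3 fell, where edgeR's quasi-likelihood test at an adjusted p below 0.05 called 43.8% of all 16406 genes (21.4% higher and 22.4% lower). With control corpses 4 rose and 4 fell, where 40.1% of all genes were called (19.7% higher and 20.5% lower). The CPM ranges of 6 members with STC1OE corpses and of 5 with control corpses did not overlap macrophages alone, and the same held for 40.0% and 37.2% of all genes. The called share of the members is above these backgrounds, but the list was chosen with earlier results known and was not tested as a list. The backgrounds were also not matched to the abundance of the members. With control corpses the median absolute log2 fold change of all genes was 0.1724. Of the called members Gas6, Itgav and Itgb5 changed by less than that, and Mertk, Axl, Pros1, Mfge8 and Itgb3 by more. Both comparisons use the same 4 libraries of macrophages alone, so their values are given side by side and are not independent.

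**Figure D2:**
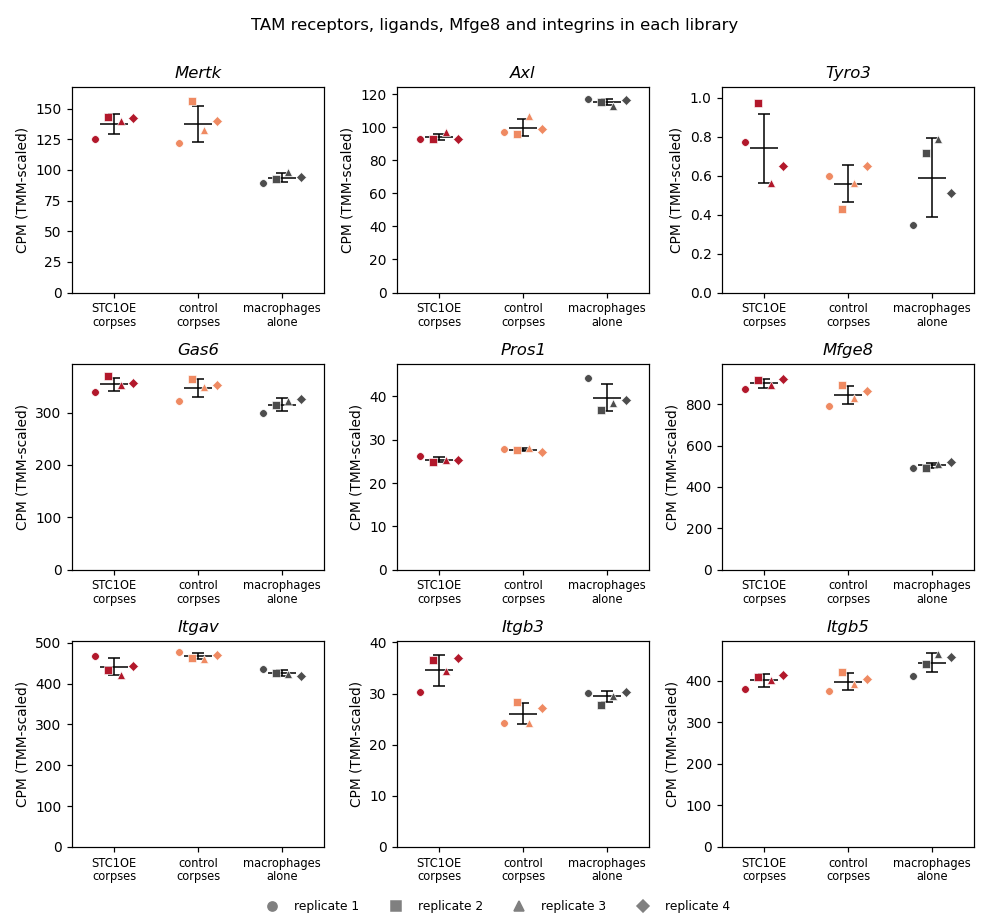
CPM of the 9 genes in each library (vertical axes from 0), with 4 libraries per group marked by replicate number and the mean ± SD as bars. For Mfge8, Mertk, Pros1 and Axl no library with corpses falls within the range of macrophages alone.

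Promoters are shown for Mertk, Mfge8, Pros1 and Axl, since these are the members whose CPM ranges were separate from macrophages alone with both kinds of corpse. RefSeq (GRCm38.p6) gave a window of 300 bases, 250 before and 50 after the annotated start, for 8 of the 9 members, and not for Itgb3. Windows are printed 5′ to 3′ on the gene's strand, with letters in capitals where a searched motif matched. The motifs were a GC box (GGGCGG), an AP-1 site (TGANTCA), a STAT site (TTCNNNGAA), an E-box (CACGTG), a hypoxia element (ACGTG, contained in the E-box) and the DR4-type LXR direct repeat, on both strands.
Mertk (chr2:128698665-128698964, plus strand): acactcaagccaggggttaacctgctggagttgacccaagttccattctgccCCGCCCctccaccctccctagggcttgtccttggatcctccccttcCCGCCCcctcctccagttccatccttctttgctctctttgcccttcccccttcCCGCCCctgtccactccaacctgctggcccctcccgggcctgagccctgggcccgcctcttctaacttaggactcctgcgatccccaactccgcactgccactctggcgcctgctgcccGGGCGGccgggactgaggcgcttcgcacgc
Mfge8 (chr7:79149011-79149310, minus strand): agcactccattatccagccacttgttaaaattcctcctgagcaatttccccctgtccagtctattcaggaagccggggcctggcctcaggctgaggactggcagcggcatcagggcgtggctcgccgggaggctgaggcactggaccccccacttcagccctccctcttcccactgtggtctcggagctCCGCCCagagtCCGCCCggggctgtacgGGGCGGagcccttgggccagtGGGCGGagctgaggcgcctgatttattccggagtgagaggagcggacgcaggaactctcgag
Pros1 (chr16:62854057-62854356, plus strand): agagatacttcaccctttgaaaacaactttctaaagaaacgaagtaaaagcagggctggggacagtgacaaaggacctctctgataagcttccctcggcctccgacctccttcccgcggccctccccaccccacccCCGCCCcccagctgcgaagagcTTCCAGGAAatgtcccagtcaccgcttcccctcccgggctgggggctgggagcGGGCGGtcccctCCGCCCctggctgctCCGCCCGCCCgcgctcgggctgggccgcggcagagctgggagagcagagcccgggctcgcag
Axl (chr7:25788684-25788983, minus strand): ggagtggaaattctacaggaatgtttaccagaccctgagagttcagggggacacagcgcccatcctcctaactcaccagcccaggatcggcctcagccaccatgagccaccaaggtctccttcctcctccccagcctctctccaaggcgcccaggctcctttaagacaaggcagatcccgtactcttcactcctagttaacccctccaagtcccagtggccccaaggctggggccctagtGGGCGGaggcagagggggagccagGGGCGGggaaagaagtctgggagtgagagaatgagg
All 8 windows held a GC box, as did 35.7% of the 32851 windows of this length. Mertk, Mfge8 and Gas6 had 4 matches each, Pros1 5, Axl 2, Tyro3 6, Itgb5 3 and Itgav 1. Pros1 also held a STAT match, found in 8.3% of all windows. The letters of the AP-1, E-box, hypoxia and LXR motifs, present in 7.81%, 7.15%, 19.6% and 0.0152% of all windows, were not in these 8. Matches are given as a description of the letters alone.

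Mertk (ENSMUSG00000014361.5, chromosome 2, 128698956 to 128802894, GRCm38) had 125.1, 142.9, 139.7 and 142.3 CPM with STC1OE corpses, 121.5, 156.2, 132.8 and 140.0 CPM with control corpses, and 89.7, 92.4, 98.2 and 93.9 CPM in macrophages alone. Every library with corpses lay above every library without. The log2 fold change was 0.55 ± 0.08 (SE) with STC1OE corpses (edgeR adjusted p = 0.000171) and 0.55 ± 0.08 with control corpses (edgeR adjusted p = 0.000185). The spread was widest with control corpses, where replicate 2 was the highest and replicate 1 the lowest. With replicates 1 and 2 alone the log2 fold changes were 0.56 and 0.61, but edgeR's adjusted p was 0.103 and 0.0935.

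Axl (ENSMUSG00000002602.16, chromosome 7, 25757273 to 25788705) went the other way. It had 92.8, 92.9, 96.8 and 93.1 CPM with STC1OE corpses, 97.2, 95.7, 107 and 98.7 CPM with control corpses, and 116.9, 115.2, 113 and 116.3 CPM in macrophages alone. Again the ranges did not overlap, although the change was small. The log2 fold change was −0.30 ± 0.03 with STC1OE corpses (edgeR adjusted p = 2.24e-09) and −0.21 ± 0.03 with control corpses (edgeR adjusted p = 1.26e-06). Neither passed when the test asked for more than a 1.2-fold change (edgeR adjusted p = 0.252 and 1).

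The balance between these receptors differed with and without corpses. Per kb, the ratio of Mertk to Axl was 1.565 to 1.785 with STC1OE corpses, 1.44 to 1.895 with control corpses and 0.8905 to 1.01 in macrophages alone. Mertk made up 62.8% ± 1.43, 61.4% ± 3.04 and 48.4% ± 1.27 of the summed TAM receptor level in these groups (SD, n = 4 each). That sum was 50.5 ± 2.06 CPM per kb with STC1OE corpses, 51.6 ± 3.16 CPM per kb with control corpses and 44.6 ± 0.561 CPM per kb in macrophages alone. Such ratios and sums rest on members chosen with results known and are given without a test.

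Tyro3 (ENSMUSG00000027298.17, chromosome 2, 119797733 to 119818104), the third TAM receptor, had 10 to 30 counts per library. Its level was 0.563 to 0.973 CPM with STC1OE corpses, 0.428 to 0.651 CPM with control corpses and 0.345 to 0.790 CPM in macrophages alone, and all ranges overlapped. The 95% interval of its log2 fold change was −0.20 to 0.83 with STC1OE corpses and −0.61 to 0.45 with control corpses, so a change of moderate size was not detectable at this depth. Whether RNA of the corpses added to these counts was not tested.

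Among the ligands, Gas6 (ENSMUSG00000031451.6, chromosome 8, 13465374 to 13494490), which can activate all TAM receptors, was abundant in every group. It had 339.5, 369.9, 351.9 and 355.6 CPM with STC1OE corpses, 322.5, 364.2, 348.1 and 351.7 CPM with control corpses, and 299.3, 314.7, 321.6 and 325.5 CPM in macrophages alone. With STC1OE corpses all libraries were above the range of macrophages alone, and with control corpses replicate 1 lay within it. The rise was small, with a log2 fold change of 0.17 ± 0.03 (edgeR adjusted p = 0.000308) and 0.14 ± 0.03 (edgeR adjusted p = 0.00244) for STC1OE and control corpses. Neither passed the test for more than 1.2-fold (edgeR adjusted p = 1 in both), and with replicates 1 and 2 alone the rise with control corpses was not called (0.0629).

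Pros1 (ENSMUSG00000022912.8, chromosome 16, 62854307 to 62929346), protein S, is a ligand of Mertk and Tyro3 and a plasma anticoagulant. It fell to 26.2, 24.8, 25.4 and 25.3 CPM with STC1OE corpses and to 27.96, 27.65, 28.13 and 27.24 CPM with control corpses, against 44.2, 36.9, 38.5 and 39.3 CPM in macrophages alone. The groups did not overlap, and the libraries with corpses were close to each other. The log2 fold change was −0.64 ± 0.04 with STC1OE corpses (edgeR adjusted p = 2.84e-13) and −0.52 ± 0.04 with control corpses (edgeR adjusted p = 3.31e-11). It passed the test under all 18 alternatives tried in either comparison. Per kb, Gas6 stood 20.8 to 23.9 times above Pros1 with STC1OE corpses, 18.5 to 21.1 times with control corpses and 10.9 to 13.7 times in macrophages alone.

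Mfge8 (ENSMUSG00000030605.15, chromosome 7, 79133768 to 79149060) showed the widest change of the 9. It had 873.4, 915.6, 893.1 and 923.6 CPM with STC1OE corpses, 792.8, 891.9, 827.7 and 863.5 CPM with control corpses, and 492.5, 494.1, 511 and 519.5 CPM in macrophages alone. Every library with corpses lay far above macrophages alone. The log2 fold change was 0.84 ± 0.03 with STC1OE corpses (edgeR adjusted p = 3.01e-19) and 0.74 ± 0.03 with control corpses (edgeR adjusted p = 6.15e-18), a 1.79-fold and a 1.67-fold difference. Of all genes tested, 4.6% and 4.97% changed by at least as much in either direction. Per kb, Mfge8 lay above Gas6 with corpses, at a ratio of 1.34 to 1.41 with STC1OE and 1.29 to 1.33 with control corpses, and below it in macrophages alone, at 0.852 to 0.893.

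**Figure D3:**
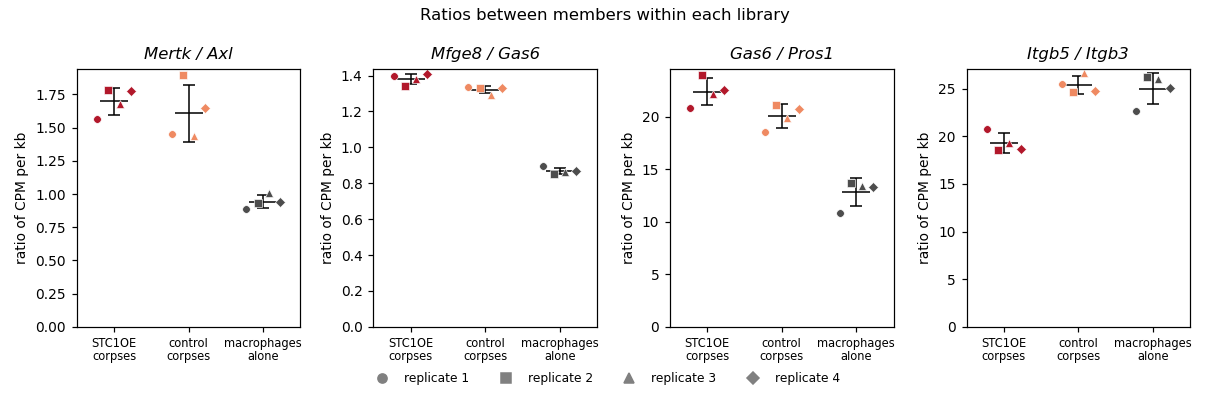
Ratios of length-scaled levels within each library (vertical axes from 0), with 4 libraries per group and the mean ± SD. The first 3 ratios separate libraries with corpses from macrophages alone, whereas Itgb5 to Itgb3 separates libraries given STC1OE corpses from both others.

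Integrin subunits changed little against macrophages alone. Itgav (ENSMUSG00000027087.11, chromosome 2, 83724397 to 83806916), the α subunit shared by both Mfge8-binding integrins, had 468.6, 432.2, 421.5 and 443.0 CPM with STC1OE corpses, 476.2, 462.5, 460.4 and 468.8 CPM with control corpses, and 436.6, 426.7, 422.6 and 419.0 CPM in macrophages alone. All libraries with control corpses lay above macrophages alone, whereas those with STC1OE corpses overlapped them. The log2 fold change was 0.05 ± 0.03 with STC1OE corpses (edgeR adjusted p = 0.137, 95% interval −0.01 to 0.11) and 0.13 ± 0.03 with control corpses (edgeR adjusted p = 0.000191). The value with STC1OE corpses passed without replicate 1 of macrophages alone (edgeR adjusted p = 0.0468) or replicate 3 of the STC1OE group (0.0204), and that with control corpses did not with replicates 1 and 2 alone (0.0508). An annotated antisense gene, Gm13684, shares 634 exon bases with Itgav, and with strand use in counting not stated its 1359 counts cannot be kept apart from the 177250 of Itgav.

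Itgb5 (ENSMUSG00000022817.15, chromosome 16, 33829665 to 33949338), the abundant β subunit here, had 378.7, 408.2, 401.1 and 414.1 CPM with STC1OE corpses, 373.7, 421.3, 390.9 and 403.5 CPM with control corpses, and 411.3, 439.2, 463.4 and 456.3 CPM in macrophages alone. The groups overlapped. It fell by 0.14 on the log2 scale with STC1OE corpses (SE 0.04, edgeR adjusted p = 0.0103) and by 0.16 with control corpses (SE 0.04, edgeR adjusted p = 0.00681). Without replicate 1 of the STC1OE group the first was no longer called (edgeR adjusted p = 0.0537), and with replicates 1 and 2 alone neither was (0.185 and 0.26).

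Itgb3 (ENSMUSG00000020689.4, chromosome 11, 104608000 to 104670476), the β subunit of αvβ3, had 30.3, 36.5, 34.5 and 36.9 CPM with STC1OE corpses, 24.3, 28.4, 24.3 and 27.1 CPM with control corpses, and 30.2, 27.8, 29.6 and 30.2 CPM in macrophages alone. With STC1OE corpses every library was above both other groups, by a narrow margin for replicate 1, and with control corpses 3 libraries were below macrophages alone and 1 was within its range. Against macrophages alone Itgb3 rose by 0.23 ± 0.06 on the log2 scale with STC1OE corpses (edgeR adjusted p = 0.00375). With control corpses the log2 fold change was −0.18 ± 0.06 (edgeR adjusted p = 0.0234). The call with control corpses was lost without replicate 1, 3 or 4 of macrophages alone (edgeR adjusted p = 0.0861, 0.0569 and 0.0674) and without replicate 1 or 3 of the control group (0.0767 and 0.0996). The call with STC1OE corpses was kept with any single library left out, with an edgeR adjusted p of at most 0.0154, but not with replicates 1 and 2 alone (0.156).

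**Figure D4:**
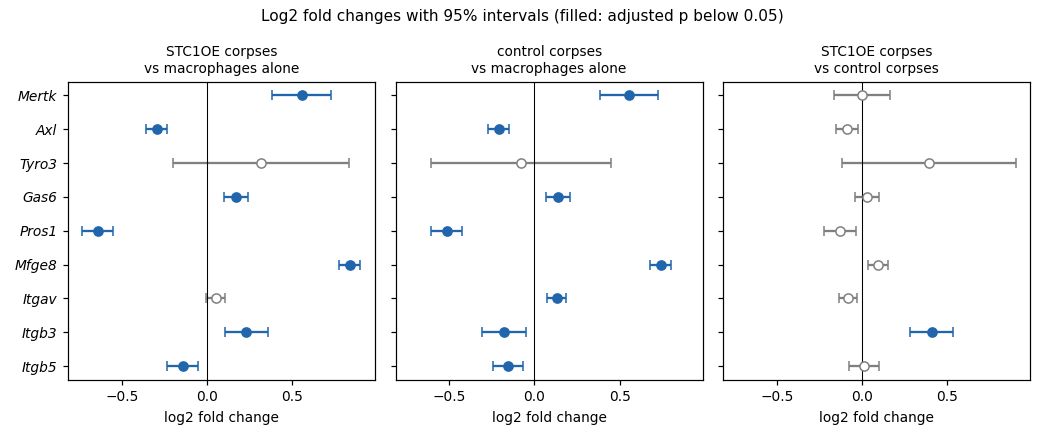
Log2 fold change of each gene with its 95% interval in the 3 comparisons, filled where edgeR's adjusted p is below 0.05. Mfge8 and Mertk lie right of 0 and Pros1 and Axl left of it in both comparisons with macrophages alone, and Itgb3 is the filled point between the corpse groups.

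The direct comparison of STC1OE with control corpses asks whether these genes differed between the kinds of corpse. As the construct and clonality are not given, STC1 cannot be told apart from other differences between the lines. Itgb3 was the single member called. It averaged 34.6 ± 3.03 CPM with STC1OE corpses and 26.0 ± 2.05 CPM with control corpses (SD, n = 4 each), a log2 fold change of 0.41 ± 0.06 (edgeR adjusted p = 0.000398). All 4 libraries with STC1OE corpses were above all 4 with control corpses. The call was kept with any 1 library left out, with log2 fold changes of 0.38 to 0.47 and an edgeR adjusted p of at most 0.00311. It was lost with replicates 1 and 2 alone (0.35, edgeR adjusted p = 0.309) and was 0.48 with replicates 3 and 4 alone (edgeR adjusted p = 3.8e-09). It did not pass a test for more than 1.2-fold (edgeR adjusted p = 1). The 14 melanocyte markers given above were lower in sum with STC1OE than with control corpses, but not each of them was. Tyrp1 was at 1.046 and 4.095 CPM on average, and Ednrb at 4.273 and 3.181 CPM. Platelets and osteoclasts also carry β3 integrin. Megakaryocyte and platelet markers summed to 104.8 to 115.5 CPM with STC1OE corpses, 112.4 to 127.4 CPM with control corpses and 134 to 141.8 CPM in macrophages alone. Pf4 made up most of this, at 107.6, 115 and 133.2 CPM on average in these groups. Between the corpse groups the means of Itga2b, Gp1ba and Gp9 were higher with STC1OE corpses, and those of Pf4 and Ppbp lower. Of 4 tested genes of this list 0 were called there. Osteoclast markers summed to 47.9 to 53.7 CPM, 47.4 to 49.7 CPM and 35.1 to 40.1 CPM in the same groups. Ctsk (33.01, 30.58 and 25.84 CPM on average) and Acp5 (15.88, 15.37 and 7.592 CPM) made up most of this. Ocstamp was highest in macrophages alone (2.467, 2.249 and 3.504 CPM), and Calcr and Oscar were the lowest of the list. Of 3 tested osteoclast markers 0 were called between the corpse groups. The part of these marker lists in the result was not tested.

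This count of 1 in 9 stands against 5.44% of all genes called in that comparison (3.33% higher and 2.12% lower). The count of all genes depended on single libraries, as it was 893 with all of them but 561 or 529 without replicate 1 or 3 of the control group, and 474 or 486 without replicate 3 or 4 of the STC1OE group. Of the called genes 61.1% were higher with STC1OE corpses, but 49.2% when scaled on macrophage-expressed genes and 73.8% by DESeq2.

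For the other 8 genes the differences were small, and the intervals give their bounds. Mertk had a log2 fold change of 0.0004 (95% interval −0.17 to 0.17), with a sign that depended on the scaling, as did that of Itgb5 (95% interval −0.08 to 0.10). For Gas6 the interval was −0.04 to 0.10, while that of Tyro3 was −0.12 to 0.91. Mfge8 stood at 901 ± 22.7 CPM with STC1OE and 844 ± 43.1 CPM with control corpses (log2 fold change 0.10 ± 0.03, edgeR adjusted p = 0.0575). It was not called in 11 of 18 alternatives and passed in the others, among them without replicate 1 of the STC1OE group (edgeR adjusted p = 0.0322), without replicate 2 of the control group (0.0106) and by DESeq2 (adjusted p = 0.0288). Itgav stood at 441 ± 20.2 CPM with STC1OE and 467 ± 7.07 CPM with control corpses (−0.08 ± 0.03, edgeR adjusted p = 0.0759). It was not called in 13 of 18 alternatives and passed in the others, among them without replicate 1 of the STC1OE group (edgeR adjusted p = 0.00529). Pros1 had libraries with STC1OE corpses all below those with control corpses (25.4 ± 0.565 CPM with STC1OE and 27.7 ± 0.391 CPM with control corpses), but was not called (−0.13 ± 0.05, edgeR adjusted p = 0.107). Such ranges without overlap were found for 2 members, Pros1 and Itgb3, and for 10.7% of all genes. Axl was at −0.09 ± 0.03 (edgeR adjusted p = 0.106).

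Itgb5 exceeded Itgb3 per kb 18.6 to 20.7 times with STC1OE corpses, 24.6 to 26.7 times with control corpses and 22.7 to 26.3 times in macrophages alone. Itgb5 thus made up 95.1% ± 0.239, 96.2% ± 0.134 and 96.1% ± 0.256 of the sum of both subunits (SD, n = 4 each).

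Genes with the most similar pattern over the 12 libraries were taken as those with the smallest root mean square difference in centred log2 CPM. For Mfge8 these were Abcc3, a transporter (0.02), and Tmem86a (0.03), where Mfge8 itself varied by 0.38 on that scale. Mertk was nearest to Iqgap2, a scaffold protein (0.04), and to Idh1, a cytosolic isocitrate dehydrogenase (0.05). Pros1 was nearest to Qpct, glutaminyl cyclase (0.05), and to Pparg, the fatty acid-sensing nuclear receptor (0.06). Itgb3 was nearest to Dio2, a thyroid hormone deiodinase (0.08), at 25.9 CPM with STC1OE corpses, 19.3 CPM with control corpses and 21.2 CPM without, and to Procr, the protein C receptor (0.10). Axl was nearest to Dusp22, a phosphatase, and Ctsc, a cysteine protease. Gas6 was nearest to Gfer and Irf8, Itgav to D10Wsu102e and Ppp4r3a, Itgb5 to Tyk2 and Anks1, and Tyro3, at low counts, to Tmem216 and Col11a2.

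Genes around the members were read from 6 lists. Where 2 values are joined below, the first is with STC1OE corpses and the second with control corpses, each against macrophages alone. Counts of called genes are to be read against all genes tested, and no list was tested against them. Of all genes, 21.4% rose and 22.4% fell with STC1OE corpses and 19.7% rose and 20.5% fell with control corpses. Calls between the corpse groups are to be read against 5.44% of all genes called there (3.33% higher and 2.12% lower with STC1OE corpses). The list of TAM receptor shedding, ligand carboxylation and feedback rose in 6 and fell in 1 of 12 tested genes with STC1OE corpses (median log2 fold change 0.15, against −0.03 over all genes). With control corpses 5 rose and 1 fell (median 0.08, against −0.001). Lgals3, galectin-3, which has been described as a Mertk ligand, reached 5116 ± 59.0 CPM with STC1OE and 4825 ± 137 CPM with control corpses, against 3700 ± 52.3 CPM in macrophages alone, and rose in both (edgeR adjusted p = 1.74e-16 and 2.72e-14) and between the corpse groups (0.0311). Socs1, a cytokine signalling inhibitor that TAM receptors can induce, rose by 0.61 and 0.69 on the log2 scale (edgeR adjusted p = 1.29e-05 and 1.73e-06). Adam17, the protease that sheds the Mertk ectodomain, was at 250.4 ± 3.20 CPM with STC1OE and 228.3 ± 2.10 CPM with control corpses and rose between them (log2 fold change 0.13 ± 0.02, edgeR adjusted p = 0.000708). Between the corpse groups these 2 calls became 1 with upper-quartile or macrophage-expressed scaling, without the low-count filter, with the compared groups alone, without replicate 1 or 3 of the control group and without replicate 2 or 3 of the STC1OE group.

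Of 13 tested bridging molecules and integrin ligands other than the members, 2 rose and 6 fell with STC1OE corpses (median −0.10), and 3 rose and 7 fell with control corpses (median −0.15). Thbs1, thrombospondin-1, a ligand of Cd36 and αv integrins, fell to 91.7 ± 4.61 CPM with STC1OE and 83.0 ± 8.26 CPM with control corpses, against 209.6 ± 15.3 CPM in macrophages alone (edgeR adjusted p = 3.84e-07 and 1.76e-07). Edil3, a phosphatidylserine-binding integrin ligand, fell by 1.005 and 0.96 on the log2 scale (edgeR adjusted p = 3.57e-06 and 6.51e-06). Anxa1, annexin A1, fell by 1.04 and 0.89 (edgeR adjusted p = 6.17e-24 and 3.32e-22). It was also lower with STC1OE than with control corpses (−0.16, edgeR adjusted p = 0.000376). Tgfb1, the latent cytokine that αv integrins activate, was higher with STC1OE than with control corpses, at 548 ± 26.8 and 493 ± 6.74 CPM (0.15 ± 0.03, edgeR adjusted p = 0.000887).

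Among 14 tested integrin partners and activators 7 rose and 3 fell with STC1OE corpses, and 4 rose and 7 fell with control corpses. Cd36, a scavenger receptor that acts with αv integrins, rose by 0.47 and 0.48 on the log2 scale (edgeR adjusted p = 2.32e-16 and 2.04e-16), and Itga4 fell by 0.36 and 0.33 (edgeR adjusted p = 1.23e-12 and 1.31e-11). Pxn, paxillin, an adaptor of integrin adhesions, was the single one called between the corpse groups (0.10 ± 0.03, edgeR adjusted p = 0.0472). It was not called with upper-quartile or macrophage-expressed scaling, with the compared groups alone, without any 1 library of the control group or without replicate 3 or 4 of the STC1OE group. Among 23 tested genes of engulfment signalling, 9 rose and 7 fell with STC1OE corpses (median 0.01), and 6 rose and 10 fell with control corpses (median −0.02). Src, a kinase downstream of αv integrins, fell by 0.62 and 0.64 (edgeR adjusted p = 1.02e-09 and 5.35e-10), and Dock2, an activator of Rac, by 0.28 in both (edgeR adjusted p = 4.9e-11 and 6.01e-11). Between the corpse groups Ptk2b, Plcg2 and Rhog were called, each 0.10 higher on the log2 scale with STC1OE corpses (edgeR adjusted p = 0.0109, 0.0301 and 0.0228). Of this list 1 gene was called without replicate 1 of the control group or replicate 4 of the STC1OE group, 0 without replicate 3 of the STC1OE group and 5 without its replicate 2.

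Other phosphatidylserine receptors rose in 4 and fell in 2 of 7 tested genes with STC1OE corpses, and rose in 4 and fell in 1 with control corpses, where 43.8% and 40.1% of all genes were called. With STC1OE corpses 5 were called without the low-count filter or with the compared groups alone. Cd300lf, a lipid-binding receptor, was at 13.9 ± 0.756 and 13.2 ± 0.625 CPM with STC1OE and control corpses, against 4.98 ± 0.355 CPM in macrophages alone (edgeR adjusted p = 2.81e-17 and 1.21e-16). Stab2, a scavenger receptor, rose by 0.735 and 0.87 on the log2 scale (edgeR adjusted p = 2.02e-07 and 8.16e-09). Cd300a, an inhibitory receptor, was the single gene of that list called between the corpse groups (0.11 ± 0.03, edgeR adjusted p = 0.013), and it was not called without replicate 3 of the control group.

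Transcription factors reported to control Mertk, Axl or Mfge8 were all tested, and of these 16 genes 7 rose and 6 fell with STC1OE corpses and 7 rose and 8 fell with control corpses. Pparg is reported to drive Mfge8 in macrophages. It was at 41.5 ± 2.09 and 44.13 ± 2.505 CPM with STC1OE and control corpses, against 64.2 ± 2.85 CPM in macrophages alone. Its log2 fold change was −0.63 ± 0.04 and −0.54 ± 0.04 (edgeR adjusted p = 2.44e-13 and 6.71e-12). Nr1h3, the LXRα gene, whose protein is reported to induce Mertk, was chosen after its values were seen. It stood at 63.7 ± 3.28 and 60.6 ± 1.88 CPM with STC1OE and control corpses, against 43.1 ± 2.40 CPM in macrophages alone (edgeR adjusted p = 9.17e-13 and 2.26e-11). Nr1h2, the other LXR gene of the list, was not called (0.06 and −0.03 on the log2 scale, edgeR adjusted p = 0.143 and 0.514). Fosl1, an AP-1 subunit, rose by 0.69 and 0.67 on the log2 scale (edgeR adjusted p = 0.00127 and 0.00166). Jun, another AP-1 subunit, was the single factor called between the corpse groups, at 262 ± 12.5 CPM with STC1OE and 235 ± 8.39 CPM with control corpses (0.16 ± 0.03, edgeR adjusted p = 0.00784). Without replicate 2 of the control group or replicate 1 of the STC1OE group 2 factors were called. The part of these factors in the levels of the members was not tested.

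**Figure D5:**
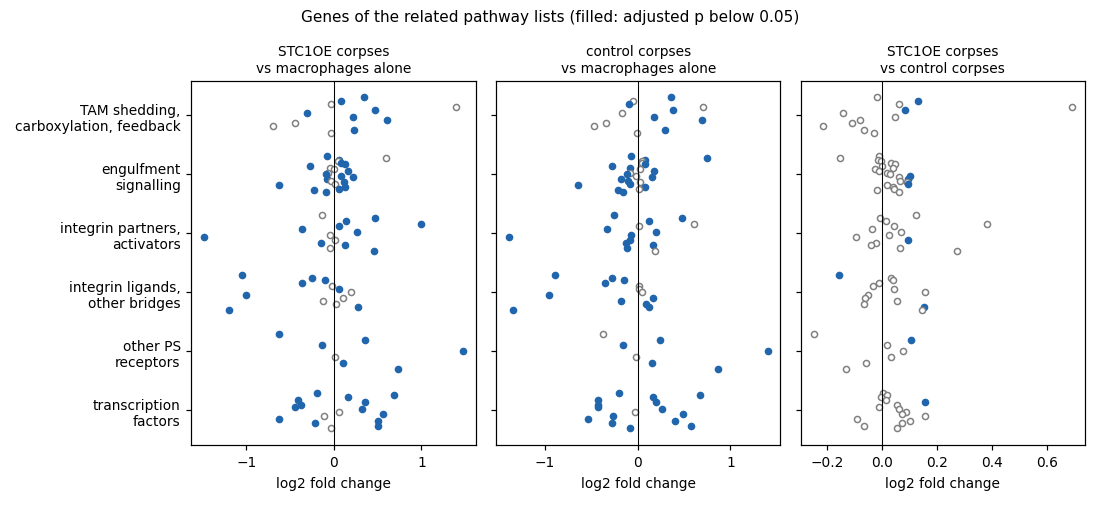
Log2 fold changes of the tested genes of the 6 related lists in the 3 comparisons (the right panel has a narrower axis), filled where edgeR's adjusted p is below 0.05. In the comparisons with macrophages alone each list holds filled points on both sides of 0.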

How the data were processed

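RNA sequencing counts of 12 libraries were grouped by their titles. Per the submitters' processing notes the deposited values are read counts per gene made with HISAT2 and HTSeq, with DESeq2 also named and with the builds mm10 and GRCm38; versions, annotation release and strand setting are not given in the sources used here. Lines that name no gene were left out of library sizes: no feature (10.55% to 14.69% of reads), ambiguous (5.53% to 6.62%), low quality (5.17% to 5.85%), not aligned (10.81% to 17.77%) and not unique (5.74% to 7.03%). Symbols were matched by gene identifier without version, and 54723 genes got one and 881 none. Coordinates and exon lengths came from GENCODE M21 (GRCm38).

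In R 4.3.3, edgeR 4.0.16 was run with filterByExpr (minimum count 10, minimum total 15), TMM factors and robust quasi-likelihood fits that used every library and 1 coefficient per group. Tests were two-sided, and p-values were adjusted over 16406 genes (Benjamini-Hochberg, threshold 0.05). Standard errors are the log2 fold change divided by the root of F. The steps were tested on simulated data. Within groups the chi-square per degree of freedom between libraries was 2.69 to 16.5, so none was merely another library sequenced again. It cannot tell separate samples from separate libraries of the same RNA or culture. With STC1OE corpses and in macrophages alone this chi-square was lowest between replicates 1 and 2 and between 3 and 4. With control corpses it was lowest between 3 and 4. No label gives a reason.

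The members and lists were chosen with earlier results of these data known. The members are all named, with the 2 called genes of largest change per list and comparison at 2 CPM or more, and the 2 most similar genes per member; 1 gene this rule names is not reported here. Protein sequences were not used here. Rhog, Nr1h3, Nr1h2, the marker genes named singly and the melanocyte subset below 1 CPM were chosen after values were seen.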

Additional observations from a re-analysis of the deposited data

Results flagged for a closer look

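Axl with STC1OE corpses had 1 library apart from the rest. Replicate 3 stood at 96.83 CPM, while the others lay between 92.8 and 93.1 CPM, a gap of 0.912 of the whole range, which is above Dixon's 95% critical value for 4 libraries. Of 27 groups of member values checked this was the single one, and chance marks about 1 in 20. The library lay below all of macrophages alone.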

How the results depend on the processing

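The alternatives were RLE or upper-quartile scaling, TMM factors from macrophage-expressed genes, leaving out the low-count filter, DESeq2, the compared groups alone, a replicate block, a test against 1.2-fold, each library left out, and replicates 1 and 2 or 3 and 4 alone. Of the values of single members, 429 kept their direction and side of the threshold, 25 lost the call, 15 gained it and 17 changed sign, all of these uncalled. Between the corpse groups Mertk was −0.0108 with upper-quartile scaling, −0.0140 with macrophage-expressed genes, −0.0018 with the compared groups alone and −0.0474 with replicates 1 and 2. Itgb5 was −0.0027 with macrophage-expressed genes and −0.0126 with replicates 1 and 2. Tyro3 with STC1OE corpses against macrophages alone was −0.0892 with replicates 3 and 4. With 1 library left out, Tyro3 with control corpses ranged from −0.24 to 0.10, and between the corpse groups Mertk ranged from −0.0554 to 0.0655, Gas6 from −0.0014 to 0.0554 and Itgb5 from −0.0165 to 0.0402.

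Between the corpse groups 2 members were called with RLE, upper-quartile or macrophage-expressed scaling, no filter or DESeq2, 0 with replicates 1 and 2, 4 with replicates 3 and 4, and 1 to 3 with 1 library left out (2 without replicate 2 of the control group, 3 without replicate 1 of the STC1OE group). Replicates 3 and 4 gave 1925 called genes there, replicates 1 and 2 gave 33, and leaving out 1 library 474 to 1200. Replicates 1 and 2 gave 4650 genes and 4 members with STC1OE corpses against macrophages alone, and 4090 genes and 3 members with control corpses. Against 1.2-fold the counts were 2119 genes and 3 members, 1687 genes and 3 members, and between the corpse groups 4 genes and 0 members, since that test asks for a larger change. Replicate pairs alone use fewer libraries, and otherwise the cause was not tested.

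Same-numbered replicates correlated at −0.39 to 0.319 over 8015 genes, 5 of 12 pairs above 0.1, and in 7 of 24 comparisons of a library with another group its own number matched best, so the numbers were not taken as pairs. With the replicate block 7300, 6712 and 1089 genes and 7, 8 and 3 members were called with STC1OE corpses, with control corpses and between them, the last adding Mfge8 (edgeR adjusted p = 0.0128) and Itgav (0.0228) to Itgb3. Depth limits Tyro3.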

Other observations

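For some members replicate 1 stood at the same end of its group in all 3 groups. It was the lowest library for Mertk, Gas6, Mfge8 and Itgb5 and the highest for Itgav in each of them. Axl, Tyro3, Pros1 and Itgb3 had no such order shared by all 3 groups. How many of all genes had it was not counted. For Mfge8 the lowest values were 873.4 CPM with STC1OE corpses, 792.8 CPM with control corpses and 492.5 CPM without. For Itgav the highest were 468.6, 476.2 and 436.6 CPM in the same order of groups. No label gives a reason. The fit with the replicate block, given above, allows for such a shared shift. In it the standard error with control corpses against macrophages alone was 0.0444 for Mertk and 0.0243 for Itgb5. Without the block these were 0.0756 and 0.0416. Both genes were named for their order of libraries, so a smaller standard error with the block follows from that choice. For Axl, which lacked that order, it was 0.0288 with the block and 0.0307 without. For Tyro3, which also lacked it, it was 0.2709 with the block and 0.2596 without.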
